A study of Mus musculus with 6 samples.

Results

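Atf4 and 9 other genes of the integrated stress response are described here: Atf4, Atf5, Atf3, Ddit3, Trib3, Chac1, Ddit4, Asns, Slc7a5 and Slc7a11. They and the gene lists used below were chosen by name, with earlier results of these data known. Shares of all genes printed beside their counts are therefore no independent test. The 10 genes are among the 17558 in the deposited table, and all 10 passed the filter on low counts. RNA came from C2C12, an established mouse myoblast line that forms myotubes, harvested 48 h after the medium was switched from fetal bovine serum to horse serum with insulin, transferrin and selenium. The 6 libraries form 3 groups of 2: cells with a scrambled hairpin RNA (shScr, genotype WT), and cells with a hairpin named for the Pkm1 isoform (shPkm1, genotype Pkm1 Knockdown) or the Pkm2 isoform (shPkm2, genotype Pkm2 Knockdown) of the glycolytic enzyme pyruvate kinase. All 6 had the same line, medium and time. Hairpin sequences and the number of clones per group are not given in the sources used here, nor whether the libraries of a group came from separate cultures, so the p-values measure only the spread between these libraries.

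As background, the integrated stress response begins when kinases that sense amino acid shortage, misfolded proteins, viral RNA or lack of haem phosphorylate the initiation factor eIF2. Translation of most mRNAs then falls while that of Atf4, which encodes a bZIP transcription factor, goes up, and Atf4 turns on genes for amino acid supply, tRNA charging and feedback control. Much of this control acts on translation, so Atf4 mRNA is not a measure of Atf4 protein. In muscle the response is known for inducing Fgf21, a secreted metabolic hormone.

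The libraries held 18216896 to 19796036 estimated counts each. Pkm was read first, by isoform, to check the labels. The Pkm1 isoform (NM_001253883.1) measured 980.1 and 958 CPM in shScr, 315 and 299.8 in shPkm1, and 313 and 334 in the shPkm2-labelled libraries (CPM are counts relative to the scaled library size). The Pkm2 isoform (NM_011099.3) measured 1927 and 2468 CPM in shScr, 1656 and 1895 in shPkm1, and 3330 and 3452 in the shPkm2-labelled libraries. The isoform named in the shPkm2 label was thus not lower in the libraries that carry it, and they are called by their label throughout. All 8 markers of myoblasts and myotubes were detected, and their summed level was 25100 to 35300 CPM in shScr, 10400 to 12000 in shPkm1 and 1690 to 1750 in the shPkm2-labelled libraries. Of the endothelial, leukocyte, adipocyte and neural markers, Ptprc, Adgre1 and Sox10 had no count, and no list summed to more than 2.34 CPM in any library. Myog, a factor of muscle differentiation, averaged 2162, 1129 and 53.0 CPM in the shScr, shPkm1 and shPkm2-labelled libraries, and Mki67, found in dividing cells, averaged 74.3, 205 and 557. These measures of differentiation and division move with the groups in every comparison below, and their part in the results was not tested.

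Many Atf4 targets carry a composite element to which Atf4 binds together with a C/EBP protein, with the core TGATGNAA. The 250 bases before the RefSeq gene start (GRCm38.p6) were searched for it on both strands in the 9 genes that had a promoter entry. It was found in 4 of the 9, against 3.91% of the 27025 genes with a promoter entry and 3.45% of all 32851 RefSeq promoters of that length. TGACGTCA, the cyclic AMP response element, was found in 0 of the 9 and in 1.55% of all promoters, so no match overlapped one of the core. The promoters with the core are printed because their genes cover both directions of change seen in shPkm1. Capitals mark the core, and a match on the opposite strand reads TTGCATCA.
Asns, chr6:7693210-7693459, minus strand: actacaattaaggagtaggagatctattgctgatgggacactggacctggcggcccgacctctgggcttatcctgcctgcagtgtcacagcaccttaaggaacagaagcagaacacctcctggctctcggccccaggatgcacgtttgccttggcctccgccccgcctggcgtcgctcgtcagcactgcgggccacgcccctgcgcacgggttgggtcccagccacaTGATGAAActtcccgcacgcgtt
Chac1, chr2:119350992-119351241, plus strand: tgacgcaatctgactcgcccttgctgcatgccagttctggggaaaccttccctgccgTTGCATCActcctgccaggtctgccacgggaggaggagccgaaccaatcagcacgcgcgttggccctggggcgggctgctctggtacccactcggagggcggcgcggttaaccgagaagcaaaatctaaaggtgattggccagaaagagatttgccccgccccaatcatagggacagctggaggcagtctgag
Slc7a11, chr3:50443614-50443863, minus strand: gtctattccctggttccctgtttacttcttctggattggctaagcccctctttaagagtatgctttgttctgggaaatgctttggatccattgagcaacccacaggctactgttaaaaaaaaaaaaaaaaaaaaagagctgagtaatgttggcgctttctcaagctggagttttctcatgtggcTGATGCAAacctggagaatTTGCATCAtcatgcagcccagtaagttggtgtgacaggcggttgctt
Atf3, chr1:191183334-191183583, minus strand: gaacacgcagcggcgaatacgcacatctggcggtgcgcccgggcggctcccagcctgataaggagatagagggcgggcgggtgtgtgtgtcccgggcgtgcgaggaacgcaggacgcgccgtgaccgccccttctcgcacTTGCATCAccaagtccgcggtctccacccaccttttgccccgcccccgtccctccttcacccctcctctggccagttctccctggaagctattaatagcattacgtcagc

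The core began 23 bases before the start in Asns, 110 in Atf3 and 193 in Chac1. Slc7a11 had it at 66 bases and, on the opposite strand, at 47 bases before a start that lies inside the gene's RefSeq span. Among 31 other Atf4 targets listed for comparison, 27 had a promoter entry and 6 held the core: Fgf21, Herpud1, Jdp2, Nupr1, Pycr1 and Vldlr. These are matches of letters, not binding sites.

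Most of the 10 genes were higher in shPkm1 and lower in the shPkm2-labelled libraries. Against shScr, 8 rose and 1, Atf3, fell in shPkm1, where 63.1% of the 12643 tested genes were called, 31.8% higher and 31.4% lower. In the shPkm2-labelled libraries 0 rose and 8 fell, where 68.0% of tested genes were called, 33.9% higher and 34.2% lower. Both comparisons share the shScr libraries. The median log2 fold change of the 10 genes was 0.58 in shPkm1 and -0.92 in the shPkm2-labelled libraries, beside 0.00 and 0.01 for all tested genes. Compared directly with shPkm1, the shPkm2-labelled libraries were lower in 9 of the 10 and higher in 0, where 53.0% of tested genes were called, 25.7% higher and 27.3% lower, and the median was -1.65. Higher in shPkm1 and also lower in the shPkm2-labelled libraries were 6 of the 10, namely Atf4, Atf5, Trib3, Asns, Chac1 and Slc7a5, a combination found in 2.93% of tested genes. In bulk RNA, fewer cells that express a gene cannot be told apart from less RNA per cell.

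**Figure D1:**
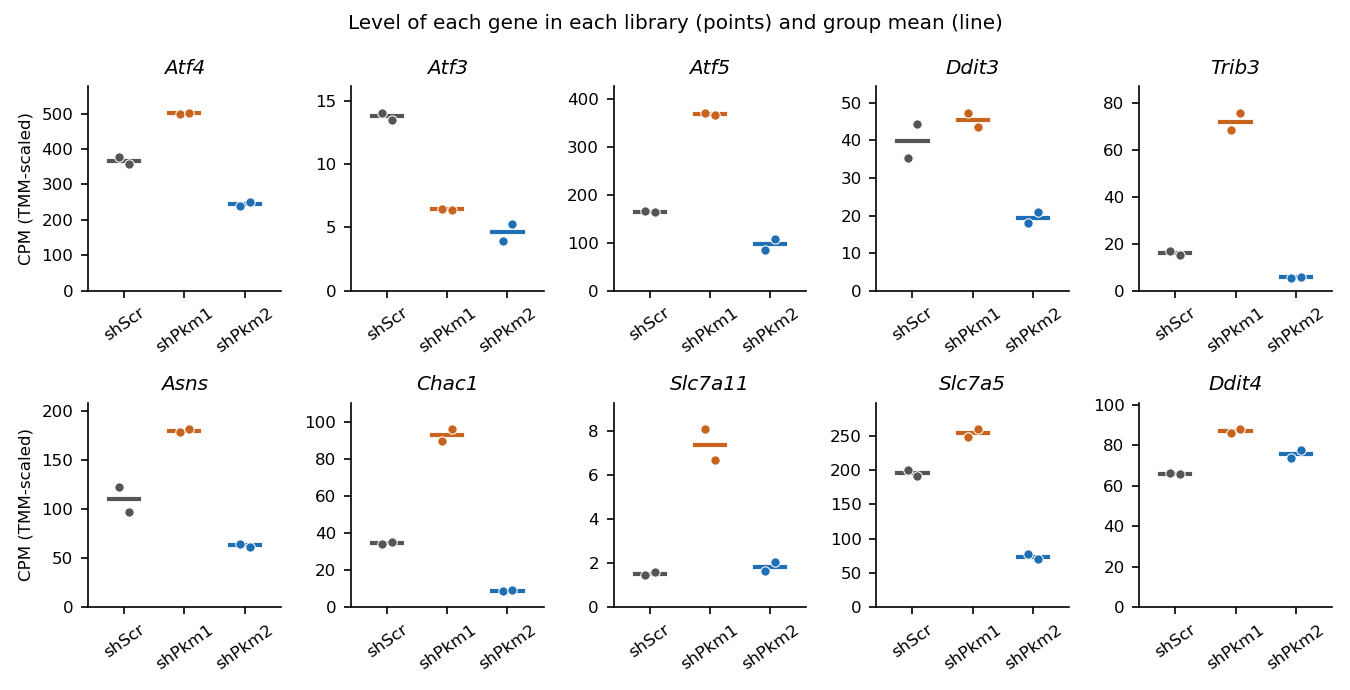
CPM of the 10 genes in each of the 6 libraries, on linear axes from 0, with points for libraries and lines for the means of 2. Trib3, Chac1 and Atf5 are highest in both shPkm1 libraries and lowest in both shPkm2-labelled libraries, and Atf3 is highest in both shScr libraries.

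Atf4 (NCBI gene 11911, chr15:80255184-80257545, plus strand) is the central factor of the response. Its level was 378 and 357 CPM in shScr, 499.5 and 502.5 in shPkm1, and 239.7 and 249.6 in the shPkm2-labelled libraries. The groups did not overlap, with shPkm1 highest and the shPkm2-labelled libraries lowest. Atf4 was 1.36-fold higher in shPkm1 than in shScr (log2 fold change 0.45, SE 0.10, adjusted p 0.00163) and 1.5-fold lower in the shPkm2-labelled libraries (-0.59, SE 0.10, adjusted p 0.000164). Values in parentheses are log2 fold changes here and below. Between shPkm1 and the shPkm2-labelled libraries the difference was 2.05-fold (-1.03, SE 0.101, adjusted p 1.74e-06). The differences from shScr depend on scale. In TPM, Atf4 measured 302 and 318 in shScr, 573 and 544 in shPkm1, and 291 and 288.5 in the shPkm2-labelled libraries, and the log2(TPM + 1) difference from shScr was 0.85 (limma, adjusted p 1.17e-05) in shPkm1 and -0.10 (adjusted p 0.375) in the shPkm2-labelled libraries. With counts per library total the differences were 0.64 (adjusted p 9.02e-05) and -0.26 (adjusted p 0.0312). The median of all tested genes moved by 0.31 in shPkm1 and 0.36 in the shPkm2-labelled libraries on the log2(TPM + 1) scale, so Atf4 in the shPkm2-labelled libraries was below the median of all genes on both scales.

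The deposited table splits Atf4 into 2 transcripts, tested among 33433 transcripts of which 10.8% were called in shPkm1, 17.2% in the shPkm2-labelled libraries and 7.91% in the direct comparison. NM_009716.3, with most of the counts, measured 310.2 and 328 CPM in shScr, 420.0 and 434 in shPkm1, and 188 and 188 in the shPkm2-labelled libraries. It followed the gene, at 0.42, adjusted p 0.0272, in shPkm1, and -0.76, adjusted p 0.00389, in the shPkm2-labelled libraries. The first of these calls was lost when any 1 library was left out, with adjusted p between 0.0515 and 0.142. NM_001287180.1 measured 58.7 and 28.5 CPM in shScr, 84.1 and 74.7 in shPkm1, and 52.8 and 64.3 in the shPkm2-labelled libraries. Here the shScr libraries lay furthest apart, the first of them overlapping with the shPkm2-labelled libraries, and neither difference from shScr passed the threshold (0.87, adjusted p 0.227, and 0.43, adjusted p 0.506). Without the first shScr library both did, at 1.46 (adjusted p 0.0427) and 1.05 (adjusted p 0.0492), with the lone shScr library left assumed to vary like the libraries of the other groups. The same is assumed of the group left with 1 library wherever a library is left out below. The 2 transcripts share sequence, and how reads were split between them is not given in the sources used here.

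Atf5 (NCBI gene 107503, chr7:44812256-44816658, minus strand) encodes a close relative of Atf4 that is also controlled at translation. It measured 165 and 164 CPM in the controls, 371 and 365 with shPkm1, and 85.7 and 108 in the shPkm2-labelled libraries. The groups again did not overlap and stood in the order seen for Atf4. The rise in shPkm1 was 2.23-fold (1.16, SE 0.114, adjusted p 1.82e-06) and the fall in the shPkm2-labelled libraries 1.7-fold (-0.77, SE 0.115, adjusted p 5.33e-05). Directly compared, the groups differed 3.8-fold (-1.93, SE 0.117, adjusted p 1.84e-08). In log2(TPM + 1) the fall was -0.32 (limma, adjusted p 0.0243).

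Atf3 (NCBI gene 11910, chr1:191170296-191183333, minus strand) encodes a bZIP factor, often a repressor, that Atf4 and other stress pathways induce. It had 14.1 and 13.5 CPM in shScr, 6.44 and 6.42 in shPkm1, and 3.95 and 5.30 in the shPkm2-labelled libraries. Both shScr libraries were above all others, and Atf3 was alone among the 10 genes in being called lower in both comparisons with shScr. The shPkm1 libraries were 2.14-fold below shScr (-1.10, SE 0.166, adjusted p 7.73e-05), and the shPkm2-labelled libraries 2.98-fold (-1.57, SE 0.17, adjusted p 2.75e-06). In log2(TPM + 1) these were -0.63 (limma, adjusted p 0.00342) and -0.98 (adjusted p 0.000107). The direct difference of -0.48 (adjusted p 0.0395) lost its call under 8 of 16 alternatives. It was -0.29 (adjusted p 0.321) without the first shPkm2-labelled library, and the call was also lost without either shPkm1 library (adjusted p 0.114 and 0.123).

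Ddit3 (NCBI gene 13198, chr10:127290793-127296291, plus strand) encodes CHOP, a C/EBP-family factor tied to cell death in lasting stress. Its level was 35.4 and 44.5 CPM in the controls, 47.4 and 43.6 with shPkm1, and 17.9 and 20.85 in the shPkm2-labelled libraries. The shPkm1 libraries overlapped with shScr, and the shPkm2-labelled libraries were below all others. The shPkm1 difference of 0.19 (95% interval -0.08 to 0.45, adjusted p 0.209) did not pass the threshold. It became 0.03 (adjusted p 0.828) without the first shScr library and 0.36 (adjusted p 0.00921) without the second. With library totals it was 0.38 (adjusted p 0.033), and in log2(TPM + 1) 0.56 (limma, adjusted p 0.00623). Ddit3 fell 2.06-fold in the shPkm2-labelled libraries against shScr (-1.04, SE 0.13, adjusted p 1.01e-05) and stood 2.35-fold below shPkm1 (-1.23, SE 0.129, adjusted p 3.57e-06). The fall was -0.63 in log2(TPM + 1) (limma, adjusted p 0.00238).

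Trib3 (NCBI gene 228775, chr2:152337425-152344060, minus strand) encodes a pseudokinase that binds Akt and restrains Atf4. It had 16.8 and 15.25 CPM in the controls, 68.3 and 75.8 with shPkm1, and 5.46 and 5.87 in the shPkm2-labelled libraries. The groups did not overlap. Trib3 rose 4.5-fold in shPkm1 (2.17, SE 0.113, adjusted p 5.92e-09) and fell 2.82-fold in the shPkm2-labelled libraries (-1.50, SE 0.133, adjusted p 4.16e-07). The 12.7-fold difference between shPkm1 and the shPkm2-labelled libraries (-3.67, SE 0.125, adjusted p 8.45e-11) was the largest among the 10 genes. In log2(TPM + 1) the fall was -0.92 (limma, adjusted p 3.98e-05).

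Chac1 (NCBI gene 69065, chr2:119351242-119354326, plus strand) encodes an enzyme that breaks down glutathione, and its promoter is printed above. It measured 34.0 and 35.4 CPM in shScr, 89.8 and 96.3 in shPkm1, and 8.71 and 9.30 in the shPkm2-labelled libraries. The order of the groups was that of Trib3, without overlap. Chac1 rose 2.68-fold in shPkm1 (1.42, SE 0.10, adjusted p 8.89e-08) and fell 3.86-fold in the shPkm2-labelled libraries (-1.95, SE 0.114, adjusted p 6.49e-09). Its direct difference was 10.3-fold (-3.37, SE 0.112, adjusted p 6.9e-11).

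Ddit4 (NCBI gene 74747, chr10:59949675-59951770, minus strand) encodes REDD1, which inhibits the growth regulator mTORC1 and is also induced by hypoxia and glucocorticoids. Its level was 66.05 and 65.9 CPM in the controls, 85.9 and 87.9 with shPkm1, and 73.8 and 77.5 in the shPkm2-labelled libraries. Both Pkm hairpin groups lay above shScr, with shPkm1 the higher. The rise in shPkm1 was 1.32-fold (0.40, SE 0.0932, adjusted p 0.00229) and, in log2(TPM + 1), 0.78 (limma, adjusted p 4.97e-05). In the shPkm2-labelled libraries the difference of 0.20 (95% interval 0.00 to 0.40, adjusted p 0.0749) did not pass the threshold, nor did the direct difference of -0.20 (adjusted p 0.0845). The first of these passed at 0.52 (adjusted p 0.00038) with library totals and at 0.64 in log2(TPM + 1) (limma, adjusted p 0.000152). The second passed without either shScr library (adjusted p 0.0403 and 0.0419) and when only the 2 compared groups were fitted (adjusted p 0.0389).

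Asns (NCBI gene 27053, chr6:7675165-7693209, minus strand) encodes asparagine synthetase, which makes asparagine from aspartate and glutamine. Of the promoters printed above, that of Asns holds the core closest to the start. It had 122.5 and 97.3 CPM in shScr, 178 and 181 in shPkm1, and 64.6 and 61.7 in the shPkm2-labelled libraries. The shScr libraries were further apart than those of the other groups, and no groups overlapped. Asns rose 1.64-fold in shPkm1 (0.71, SE 0.113, adjusted p 0.00012) and fell 1.74-fold in the shPkm2-labelled libraries (-0.80, SE 0.115, adjusted p 3.83e-05). The direct difference was 2.84-fold (-1.51, SE 0.115, adjusted p 1.65e-07). In log2(TPM + 1) the rise was 1.10 (limma, adjusted p 3.34e-06) and the fall -0.33 (adjusted p 0.0148), and with library totals the fall was -0.47 (adjusted p 0.00179).

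Slc7a5 (NCBI gene 20539, chr8:121881146-121907686, minus strand) encodes LAT1, which carries leucine and other large neutral amino acids into the cell. It measured 199.9 and 191 CPM in the controls, 248 and 259 with shPkm1, and 77.15 and 69.6 in the shPkm2-labelled libraries. The groups did not overlap, and the shPkm2-labelled libraries lay further from shScr than shPkm1 did. The rise in shPkm1 was 1.3-fold (0.38, SE 0.0978, adjusted p 0.00458), the fall in the shPkm2-labelled libraries 2.67-fold (-1.42, SE 0.101, adjusted p 4.63e-08) and the direct difference 3.46-fold (-1.79, SE 0.101, adjusted p 9.57e-09). In log2(TPM + 1) the rise was 0.76 (limma, adjusted p 9.3e-05), and with library totals 0.57 (adjusted p 0.000286). Slc3a2 encodes the chain that pairs with LAT1 and with xCT at the membrane. Its log2 fold changes were 0.61 (adjusted p 0.000221) in shPkm1 and -0.92 (adjusted p 4.34e-06) in the shPkm2-labelled libraries.

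Slc7a11 (NCBI gene 26570, chr3:50364936-50499087, minus strand) encodes xCT, which takes up cystine in exchange for glutamate and is a target of both Atf4 and the oxidant-responsive factor Nrf2. It was the lowest of the 10 genes, with 23 and 28 counts in shScr, 152 and 132 in shPkm1, and 35 and 43 in the shPkm2-labelled libraries. In CPM these are 1.46 and 1.58 in shScr, 8.09 and 6.67 in shPkm1, and 1.65 and 2.05 in the shPkm2-labelled libraries. Both shPkm1 libraries were far above the rest, and the shPkm2-labelled libraries were slightly above shScr. Slc7a11 rose 4.83-fold in shPkm1 (2.27, SE 0.243, adjusted p 3.91e-06). In the shPkm2-labelled libraries the difference from shScr was 0.28 (95% interval -0.32 to 0.88, adjusted p 0.389), which did not pass, and the direct difference was 3.98-fold (-1.99, SE 0.228, adjusted p 7.72e-06). In log2(TPM + 1), which understates changes of low genes, the rise in shPkm1 was 0.99 (limma, adjusted p 1.68e-05) and the direct difference -0.82 (adjusted p 0.000102).

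**Figure D2:**
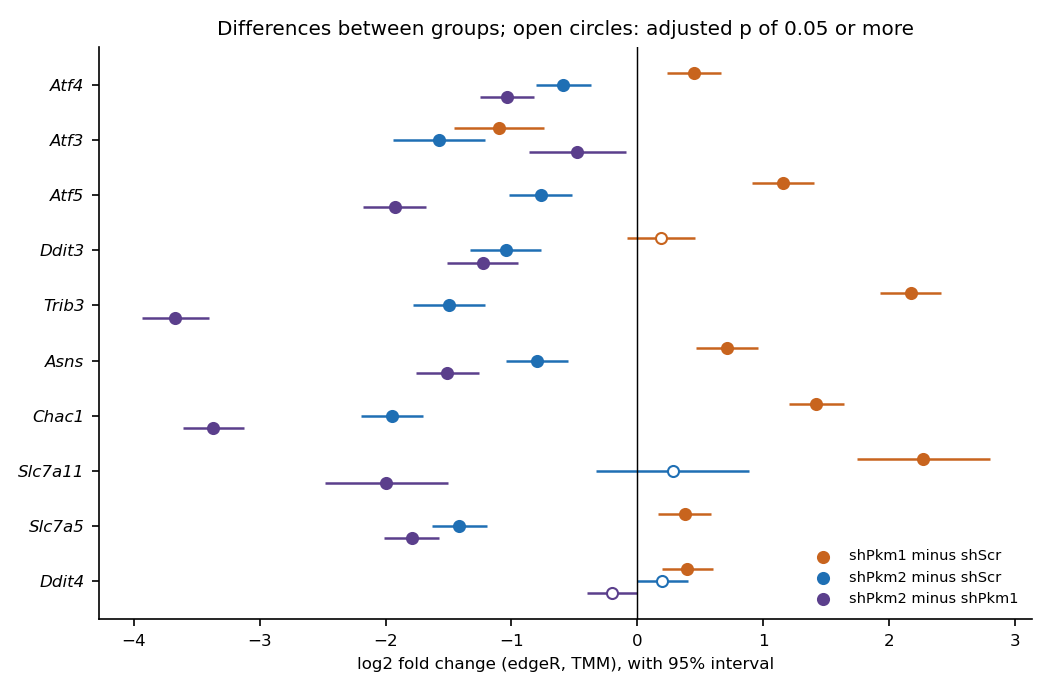
Log2 fold changes of the 10 genes (horizontal axis) with 95% intervals in the 3 comparisons, with filled circles for an adjusted p under 0.05. Trib3 and Chac1 reach -3.67 and -3.37 between the shPkm2-labelled and the shPkm1 libraries, and Ddit4 lies nearest to 0 there at -0.20.

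TPM, which divides by transcript length, puts the 10 genes on a common scale. Atf4 was the most abundant in each group, at means of 310.0 TPM in shScr, 558 in shPkm1 and 289.6 in the shPkm2-labelled libraries. Atf5 was next, at 135, 396 and 108.5 TPM. In shScr, Asns (80.3), Slc7a5 (77.5), Ddit3 (67.4) and Ddit4 (55.9) came after these, and each overlapped with its neighbour in that order. Chac1 (31.75), Trib3 (11.03), Atf3 (9.875) and Slc7a11 (0.230) came last and did not overlap. In shPkm1 the order was Asns (173), Slc7a5 (132), Chac1 (111), Ddit3 (98.4), Ddit4 (96.3), Trib3 (65.05), Atf3 (6.04) and Slc7a11 (1.45), with overlap between Ddit3 and Ddit4 alone. In the shPkm2-labelled libraries Ddit4 (87.7) came after Atf5, above Asns (63.7), Ddit3 (42.5) and Slc7a5 (39.9), the last pair overlapping, and Chac1 (11.25), Trib3 (5.35), Atf3 (4.525) and Slc7a11 (0.385) followed.

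How closely the genes kept to Atf4 differed. Over the 6 libraries, Pearson's r of log2 CPM with Atf4 was 0.997 for Chac1, 0.991 for Asns, 0.982 for Trib3, 0.977 for Atf5, 0.965 for Slc7a5 and 0.926 for Ddit3. For Slc7a11, Ddit4 and Atf3 it was 0.752, 0.435 and 0.374. These r describe 3 groups of 2 libraries that share their scaling. By Euclidean distance between centred log2 CPM, which also weighs the size of change, the 5 genes closest to Atf4 among 10715 were Sspn (0.083), Zdhhc9 (0.089), Pxn (0.108), Cry2 (0.125) and Cyp51 (0.15). Sspn measured 47.7 and 46.2 CPM in shScr, 68.1 and 64.8 in shPkm1, and 31.4 and 32.1 in the shPkm2-labelled libraries. Of the other 9 genes, Asns was closest to Atf4 at 0.514, rank 307 among the 10715. Trib3, furthest from it, was at 2.65, rank 9804.

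**Figure D3:**
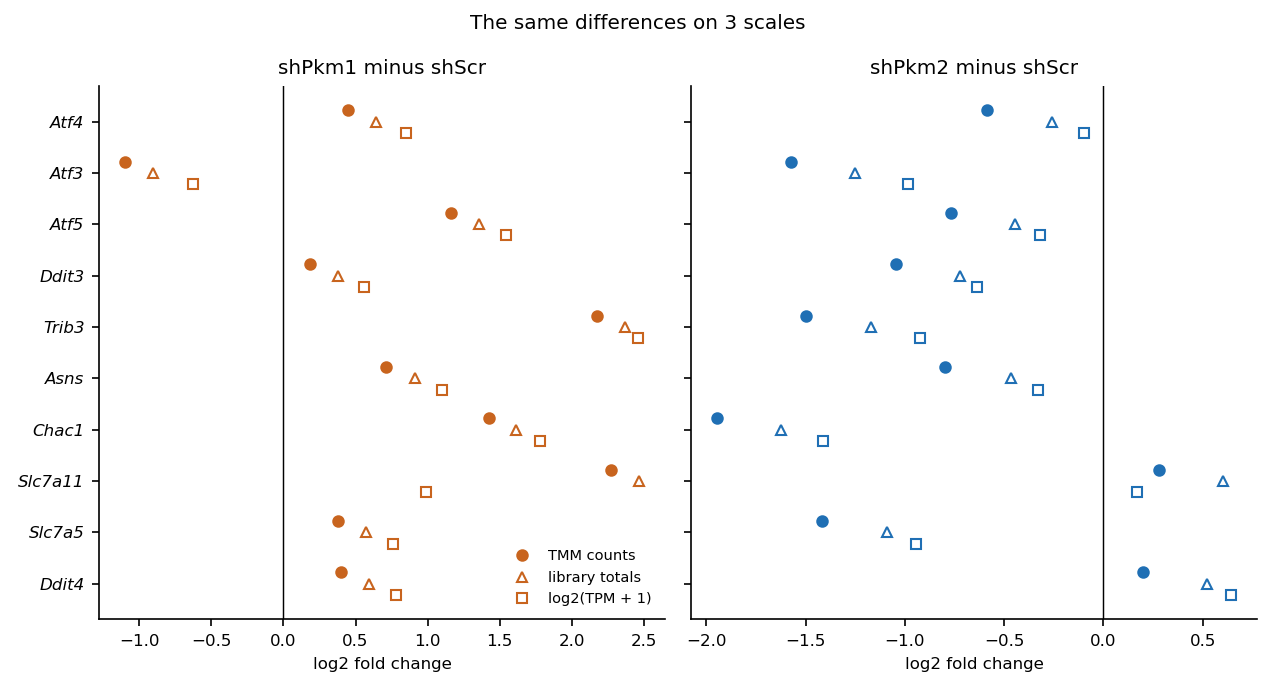
Log2 fold changes against shScr (horizontal axes) of the 10 genes from counts with trimmed mean scaling (circles), from counts per library total (triangles) and from log2(TPM + 1) (squares). No gene changes sign, while Atf4 in the shPkm2-labelled libraries moves from -0.59 to -0.26 and -0.10.

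The choice of scale moved the centre of all genes. Library totals shifted the median of all tested genes by 0.19 in shPkm1 and 0.33 in the shPkm2-labelled libraries, and log2(TPM + 1) by 0.31 and 0.36. The share of calls that were higher went from 50.3% to 65.8% and 78.1% in shPkm1, and from 49.8% to 69.3% and 75.7% in the shPkm2-labelled libraries. In the direct comparison it went from 48.4% to 61.3% and 53.8%. None of the 10 genes changed sign in any comparison under any of the 16 alternatives. On log2(TPM + 1), 9 of them rose and 1 fell in shPkm1, 1 rose and 7 fell in the shPkm2-labelled libraries, and 0 were higher and 8 lower in the direct comparison. On that scale 62.7%, 69.2% and 47.6% of all tested genes were called in these comparisons.

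Upstream of Atf4 stand the eIF2 kinases, the eIF2 phosphatase subunits, the eIF2 subunit Eif2s1 and the exchange factor eIF2B, 12 genes in all. In shPkm1 3 rose and 5 fell, and in the shPkm2-labelled libraries 3 rose and 8 fell. These are 8 and 11 of 12 called, beside 63.1% and 68.0% of all tested genes. Their medians were -0.24 and -0.43. On log2(TPM + 1) these became 0.17 and 0.03, beside 0.31 and 0.36 for all tested genes. For the genes of this and the following lists, each value given with an adjusted p is a log2 fold change. Eif2ak4, the amino acid sensor GCN2, measured 13.5 and 14.2 CPM in shScr, 23.8 and 21.7 in shPkm1, and 34.4 and 30.8 in the shPkm2-labelled libraries. It rose in both, by 0.71 (adjusted p 0.000188) and 1.23 (adjusted p 8.27e-07), and was 0.52 (adjusted p 0.00154) in the direct comparison. Eif2ak3, the endoplasmic reticulum kinase PERK, rose by 0.63 (adjusted p 0.00318) in shPkm1 and 0.63 (adjusted p 0.0028) in the shPkm2-labelled libraries. Eif2ak2, the kinase PKR that binds double-stranded RNA, had log2 fold changes of -1.30 (adjusted p 3.63e-07) and -0.98 (adjusted p 2.39e-06). Ppp1r15a, the stress-induced phosphatase subunit GADD34 that reverses eIF2 phosphorylation, is itself a target of Atf4. Its level was 79.2 and 78.4 CPM in the controls, 47.3 and 50.5 with shPkm1, and 31.5 and 32.0 in the shPkm2-labelled libraries. The groups did not overlap, and Ppp1r15a was called lower in both, as was Atf3. In the direct comparison 3 of the 12 were higher and 2 lower, among them Eif2s1, the subunit that is phosphorylated, at 0.44 (adjusted p 0.00536) and Eif2ak1, the haem-sensing kinase HRI, at -0.50 (adjusted p 0.000722). Over all tested genes 53.0% were called in that comparison. Without the second shPkm1 library 3 of the 12 passed in place of 5, and 38.6% of all tested genes. On log2(TPM + 1) the counts were 3 higher and 2 lower in shPkm1, and 4 higher and 2 lower in the shPkm2-labelled libraries. Over all tested genes on that scale, 62.7% were called in shPkm1 and 69.2% in the shPkm2-labelled libraries. Of those calls 78.1% and 75.7% were higher.

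Of 31 other known Atf4 targets, 30 were tested. In shPkm1 19 rose and 2 fell, and in the shPkm2-labelled libraries 3 rose and 16 fell, beside 31.8% and 31.4%, and 33.9% and 34.2%, of all tested genes. The direct comparison had 0 higher and 24 lower in the shPkm2-labelled libraries, beside 25.7% and 27.3%. The medians were 0.51, -0.47 and -1.37. With library totals the second of these was -0.15, beside 0.33 for all tested genes. With log2(TPM + 1) the direct comparison still gave 0 higher and 22 lower, while the shPkm2-labelled libraries against shScr gave 10 higher and 9 lower. On that scale 47.6% and 69.2% of all tested genes were called in these 2 comparisons, with 53.8% and 75.7% of those calls higher. Against shScr the median of the targets in the shPkm2-labelled libraries was then -0.01, beside 0.36 for all tested genes.

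Vldlr, a lipoprotein receptor, had 31 and 36 counts in shScr, 563 and 503 in shPkm1, and 13 and 6 in the shPkm2-labelled libraries, and so reached the mean of 50 counts asked of named genes through shPkm1 alone. In CPM it measured 1.965 and 2.03 in shScr, 30.0 and 25.4 in shPkm1, and 0.612 and 0.286 in the shPkm2-labelled libraries. Its log2 fold change was 3.79 (adjusted p 5.77e-09) in shPkm1 and -5.92 (adjusted p 3.94e-10) in the direct comparison. Ero1a, an oxidase that helps form disulfide bonds in the endoplasmic reticulum, was in shPkm1 at 1.84 (adjusted p 3.14e-07). The targets that fell there were Map1lc3b, of the autophagosome, at -0.64 (adjusted p 6.26e-05) and Slc6a9, a glycine transporter, at -0.55 (adjusted p 0.000285). On log2(TPM + 1) these were -0.25 (limma, adjusted p 0.0549) and -0.15 (adjusted p 0.316).

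Fgf21 fell most in the shPkm2-labelled libraries. It measured 92.7 and 61.75 CPM in the controls, 77.5 and 85.8 with shPkm1, and 2.59 and 2.91 in the shPkm2-labelled libraries. The shPkm1 libraries lay within the range of shScr, and the shPkm2-labelled libraries were 28-fold below shScr, a log2 fold change of -4.81 (adjusted p 3.28e-10). Gpt2, a mitochondrial alanine aminotransferase, was 6.61-fold lower there, at -2.72 (adjusted p 1.83e-09). Slc1a5, a glutamine transporter, rose in the shPkm2-labelled libraries by 0.56 (adjusted p 0.000888), and Cebpg, a dimer partner of Atf4, by 0.46 (adjusted p 0.00243).

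Like the 6 genes named above, 8 of these 30 targets were called higher in shPkm1 and lower in the shPkm2-labelled libraries, beside 2.93% of all tested genes. Named here after their values were seen, they were Nupr1, Vldlr, Slc3a2, Slc7a1, Psat1, Psph, Pycr1 and Herpud1. Nupr1, a stress-induced chromatin protein, was at 1.04 (adjusted p 1.39e-06) and -1.70 (adjusted p 1.27e-08). Pycr1, of proline synthesis, was at 1.81 (adjusted p 2.55e-08) and -0.69 (adjusted p 0.000207). Psph, of serine synthesis, was at 1.03 (adjusted p 1.39e-05) and -0.61 (adjusted p 0.00129). On log2(TPM + 1) the falls of Nupr1, Herpud1 and Slc3a2 in the shPkm2-labelled libraries passed the threshold, at -1.24, -1.31 and -0.44 (limma, adjusted p 7.03e-07, 2.38e-07 and 0.00216), and those of the other 5 did not (adjusted p 0.14 to 0.34). Psat1, of the same pathway as Psph, was at -0.29 (adjusted p 0.0248) there and turned to 0.17 on that scale and to 0.04 with library totals (adjusted p 0.726).

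Cytosolic aminoacyl-tRNA synthetases charge tRNAs with amino acids, and several are Atf4 targets. Of the 20, 5 rose and 3 fell in shPkm1, 0 rose and 12 fell in the shPkm2-labelled libraries, and 2 were higher and 15 lower in the direct comparison. Over all tested genes 31.8% rose and 31.4% fell in shPkm1, 33.9% rose and 34.2% fell in the shPkm2-labelled libraries, and 25.7% were higher and 27.3% lower in the direct comparison. Eprs, which charges glutamate and proline tRNAs, measured 183 and 167 CPM in the controls, 337 and 344 with shPkm1, and 179.5 and 147.5 in the shPkm2-labelled libraries. It was at 0.96 (adjusted p 8.26e-06) in shPkm1 and at -1.06 (adjusted p 3.98e-06) in the direct comparison. Iars, for isoleucine, rose in shPkm1 by 0.33 (adjusted p 0.00904), and Kars, for lysine, was lower there at -0.76 (adjusted p 6.2e-05). Qars, for glutamine, was at -0.43 (adjusted p 0.00204) in shPkm1 and at -0.03 on log2(TPM + 1) (limma, adjusted p 0.827). In the shPkm2-labelled libraries the largest falls were those of Yars, for tyrosine, at -0.91 (adjusted p 1.12e-05) and Farsa, for phenylalanine, at -0.85 (adjusted p 8.56e-06). The 2 that were higher in the direct comparison were Kars at 0.39 (adjusted p 0.0102) and Hars, for histidine, at 0.34 (adjusted p 0.0113). Without the second shPkm1 library 4 of the 20 passed in shPkm1 in place of 8, while the share over all tested genes went from 63.1% to 52.5%. On log2(TPM + 1) 16 were higher and 1 lower in shPkm1, 6 and 3 in the shPkm2-labelled libraries, and 2 and 14 in the direct comparison. Over all tested genes that scale called 62.7%, 69.2% and 47.6% in these comparisons. Of those calls 78.1%, 75.7% and 53.8% were higher.

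Chaperones of the endoplasmic reticulum and the unfolded protein response, which reaches eIF2 through PERK, were read as 20 genes. In shPkm1 10 rose and 1 fell, and in the shPkm2-labelled libraries 7 rose and 5 fell. These are 11 and 12 of 20 called, beside 63.1% and 68.0% of all tested genes. Without the first or the second shPkm1 library 6 genes passed in shPkm1 in place of 11, and 46.8% and 52.5% of all tested genes in place of 63.1%. The direct comparison had 5 higher and 7 lower, beside 25.7% and 27.3% of all tested genes. The counts in the shPkm2-labelled libraries became 10 higher and 2 lower with library totals and 12 higher and 1 lower on log2(TPM + 1). On the latter scale shPkm1 had 16 higher and 0 lower, and the direct comparison 5 and 5. Library totals called 69.6% of all tested genes in the shPkm2-labelled libraries, 69.3% of those calls higher. On log2(TPM + 1) 62.7% were called in shPkm1, 69.2% in the shPkm2-labelled libraries and 47.6% in the direct comparison. Of those calls 78.1%, 75.7% and 53.8% were higher. Hsp90b1, the chaperone GRP94, measured 434 and 434 CPM in shScr, 721 and 688 in shPkm1, and 1109 and 1086 in the shPkm2-labelled libraries. Like Atf4 it rose in shPkm1, by 0.70 (adjusted p 8.92e-05). It was highest where Atf4 was lowest, in the shPkm2-labelled libraries, at 1.34 (adjusted p 1.67e-07) against shScr. Ern1, the stress sensor IRE1, also rose there, by 0.79 (adjusted p 0.000128). Atf6, a sensor that becomes a transcription factor, was at -0.83 (adjusted p 4.4e-06) in the shPkm2-labelled libraries and at -1.07 (adjusted p 6.35e-07) in the direct comparison. Xbp1, the factor made by IRE1 splicing, was at -0.68 (adjusted p 3.76e-05) in the shPkm2-labelled libraries but at -0.22 on log2(TPM + 1) (limma, adjusted p 0.0589). In shPkm1 the largest rises were those of Edem1, which sends misfolded glycoproteins to degradation, at 0.91 (adjusted p 6.02e-05), and the lectin chaperone Calr, at 0.75 (adjusted p 0.000145). Dnajb11, a co-chaperone, was the 1 that fell there, at -0.41 (adjusted p 0.00207), and was at -0.03 on log2(TPM + 1) (limma, adjusted p 0.848).

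**Figure D4:**
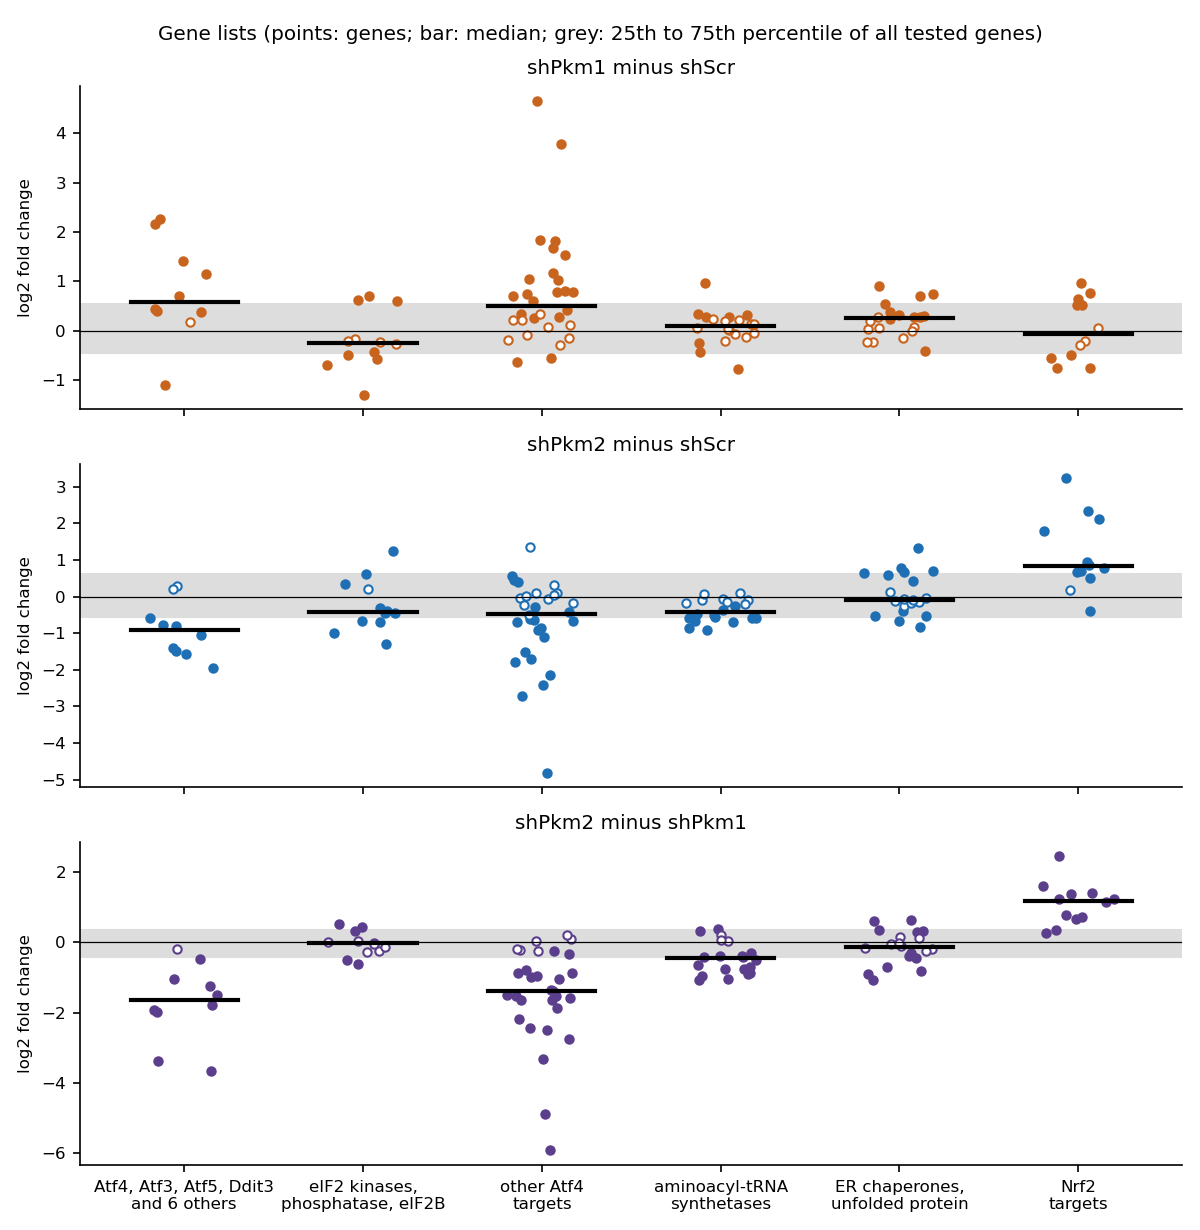
Log2 fold changes (vertical axes) of the tested genes of each list in the 3 comparisons, with bars for medians, filled points for an adjusted p under 0.05 and a grey band from the 25th to the 75th percentile of all tested genes. In the direct comparison of the shPkm2-labelled with the shPkm1 libraries the median is -1.37 for the other Atf4 targets and 1.19 for the Nrf2 targets.

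Slc7a11 answers to Nrf2 as well as Atf4, so 12 genes of the Nrf2 response to oxidants were set beside it. In shPkm1, where Slc7a11 was 4.83-fold higher, 5 of them rose and 4 fell, beside 31.8% and 31.4% of all tested genes. In the shPkm2-labelled libraries 10 rose and 1 fell, beside 33.9% and 34.2%. In the direct comparison, where Slc7a11 was 3.98-fold lower, 12 of the 12 were higher and 0 lower, beside 25.7% and 27.3%. The same counts were found with library totals and on log2(TPM + 1). The part of Nrf2 or Atf4 in the differences of Slc7a11 was not tested. Nqo1, a quinone reductase, measured 3.99 and 6.61 CPM in shScr, 10.0 and 8.24 in shPkm1, and 46.9 and 53.15 in the shPkm2-labelled libraries. Against shScr it was at 0.77 (adjusted p 0.00486) in shPkm1 and at 3.22 (adjusted p 4.45e-09) in the shPkm2-labelled libraries. G6pdx, which makes NADPH, was at 0.96 (adjusted p 2.26e-05) and 2.34 (adjusted p 3.46e-09). Gclm, of glutathione synthesis, was 3.03-fold higher in the shPkm2-labelled libraries than in shPkm1, where Chac1, of glutathione breakdown, was 10.3-fold lower. Txnrd1, a thioredoxin reductase, was at -0.74 (adjusted p 2.5e-05) in shPkm1. Hmox1, haem oxygenase, was at -0.76 (adjusted p 1.39e-05) in shPkm1 and -0.40 (adjusted p 0.00192) in the shPkm2-labelled libraries, and the latter turned to 0.06 on log2(TPM + 1) (limma, adjusted p 0.647).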

How the data were processed

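The table holds 57920 RefSeq transcripts in 6 C2C12 libraries. Per the file headers, the authors deposited an estimated count and a TPM value per transcript and library; the counts are unnormalized, 16.5% to 17.7% of those above 0 are whole (within 1e-06), and TPM is adjusted for transcript length. Per the submitters' processing notes, mm10, HISAT, StringTie, Bowtie, RSEM and DESeq2 were used, with no roles stated; strandedness is not given in the sources used here. Columns of FPKM (6) and of group means (9) were not used.

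Transcripts were summed by NCBI gene and counts rounded. RefSeq gave symbols for 17445 of 17558 genes, and the rest held at most 0.148% of counts. In edgeR 4.0.16 (R 4.3.3), filterByExpr (minimum count 10, total 15) kept 12643 genes. Libraries were scaled by trimmed means (TMM), 1 coefficient was fitted per group over all 6 libraries, and quasi-likelihood tests (two-sided) were adjusted by Benjamini-Hochberg, with calls under 0.05. SE is the absolute log2 fold change over the square root of F. Groups came from sample titles. With 2 libraries against 2, an exact permutation could not go below p = 0.333.

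The test was run on simulated counts for shPkm1 against shScr (12109 genes): it called 88.4% of 95 genes changed by 1 (log2), 40.2% of 97 changed by 0.5, and 13 of 11917 unchanged ones. Far fewer genes were changed there than were called in the data, so these rates do not carry over to the data. Libraries of a group differed beyond sampling noise, with a chi-square per degree of freedom of 6.17 (shPkm1), 6.95 (shPkm2) and 32.5 (shScr). The fit shared its spread over these groups. With only the compared groups fitted, 60.7% of tested genes passed in shPkm1 in place of 63.1%. In the shPkm2-labelled libraries 67.1% passed in place of 68.0%, and in the direct comparison 62.9% in place of 53.0%.

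The 16 alternatives were DESeq2 size factors, library totals, no filter, a minimum mean of 50 counts, DESeq2 1.42.0, fitting the compared groups alone, a replicate block, limma 3.58.1 on log2(TPM + 1), on log2(TPM + 0.1) and on log2(TPM + 1) with a TPM filter, and each library left out. The members and lists were chosen with earlier results of these data known. From each other list and comparison, the text names up to 2 higher and 2 lower called genes with the largest change, at least 50 counts on average and no overlap between groups. Outside that rule, Slc3a2 was named as the partner of Slc7a5, and Nupr1, Slc7a1, Psat1, Psph, Pycr1 and Herpud1 after their values were seen. The genes nearest to Atf4 were 5 with the same minimum and no clone name.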

Additional observations from a re-analysis of the deposited data

How the results depend on the processing

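Of 160 values per comparison (10 genes under 16 alternatives), 155 kept their side of the threshold in shPkm1, 153 in the shPkm2-labelled libraries and 149 in the direct comparison, and none changed sign. The exceptions concern Atf4, Atf3, Ddit3 and Ddit4. The number of the 10 genes that rose in the shPkm2-labelled libraries was 1, Ddit4, in place of 0 with library totals and with each of the 3 limma settings on TPM. With each of these limma settings, 17 synthetases in place of 8 passed in shPkm1. Of the eIF2 genes 5 in place of 8 passed there, and 6 in place of 11 in the shPkm2-labelled libraries. Over all tested genes the same settings called 62.7% to 64.3% in shPkm1 and 69.2% to 71.0% in the shPkm2-labelled libraries. Leaving out 1 library gave 4 to 10 synthetases and 6 to 12 endoplasmic reticulum genes in shPkm1 (8 and 11 with all libraries), and 3 to 7 eIF2 genes in the direct comparison (5), while the share of all tested genes called ran from 46.8% to 64.2% in shPkm1 and from 38.3% to 62.0% in the direct comparison. Transcripts were less certain than genes: without 1 library, the difference of Atf4 NM_001287180.1 in the shPkm2-labelled libraries ran from -0.0029 to 1.05, and that of Slc7a11 NM_011990.2 from -0.15 to 7.77. The cause was not tested.

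Replicate numbers did not pair the libraries (correlations of deviations -0.0256, 0.0418 and 0.0527). With the replicate number as a block, 8 of the 10 genes rose and 1 fell in shPkm1, 8 fell in the shPkm2-labelled libraries and 9 in the direct comparison, the counts found without it, and 7922, 8566 and 6682 of all tested genes passed in place of 7984, 8602 and 6703.

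In simulated counts with 2 libraries per group, differences near 0.5 on the log2 scale were often missed. Far fewer genes were changed there than the 63.1% and 68.0% called against shScr in the data. The adjustment was thus stricter there, and the share missed in the data was not measured. Slc7a11, at 23 to 152 counts, is the least precise of the 10 genes.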
